A study of Homo sapiens with 11 samples.

Results

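The zinc finger genes of chromosome 19 were examined here as 245 protein-coding genes of 19645 protein-coding genes measured. They were chosen by place and name alone: a gene on chromosome 19 that the RNA-seq files name ZNF followed by digits and at most 1 letter. Of 260 genes with such a name, 15 are annotated as pseudogenes and were kept apart. The data came from HK2, an immortalised line of human proximal tubular epithelial cells, kept in DMEM-F12 with 10% FBS, antibiotics and 0.05% DMSO, with no second condition and no untreated arm. The study asked which regulatory elements and target genes are active in kidney tubule cells, and RNA was measured in 2 libraries. For ChIP-seq, cells were fixed with 1% formaldehyde and H3K4me3 (Abcam), H3K27ac (Abcam) and H3K27me3 (Diagenode) were each profiled in 2 replicates. Input and HiChIP libraries were not analysed here.

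C2H2 zinc finger proteins read DNA through repeated fingers, each folded around a zinc ion. Many of those on chromosome 19 also carry a KRAB domain, which recruits TRIM28 (KAP1) and with it SETDB1, the enzyme that writes H3K9me3, and HP1 proteins; a large share of their known targets are transposable elements. The genes arose by tandem duplication and lie in clusters. H3K4me3 marks promoters, H3K27ac marks active promoters and enhancers, and H3K27me3 is the mark of Polycomb repression. H3K9me3, the mark laid through the KRAB pathway, was not among the marks profiled.

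The results turn on the promoters of these genes, and so the sequence of the 100 bases before the RefSeq start is given for 1 gene of each of 4 kinds of promoter; the 1 promoter with H3K4me3 and H3K27me3, that of ZNF536, is described with its peaks. Each was the gene of highest RNA level of its kind whose stretch had a single exact match in GRCh37 and touched no annotated exon, and capitals mark CpG. ZNF428 had H3K4me3 and H3K27ac, ZNF784 had H3K4me3 but H3K27ac in replicate 1 only, ZNF177 had an H3K4me3 peak in replicate 2 only, and ZNF534 had no peak of any mark.
ZNF428: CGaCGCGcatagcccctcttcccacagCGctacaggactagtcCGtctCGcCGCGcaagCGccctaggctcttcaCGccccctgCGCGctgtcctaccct
ZNF784: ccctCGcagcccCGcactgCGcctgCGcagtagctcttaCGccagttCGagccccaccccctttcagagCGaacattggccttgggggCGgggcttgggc
ZNF177: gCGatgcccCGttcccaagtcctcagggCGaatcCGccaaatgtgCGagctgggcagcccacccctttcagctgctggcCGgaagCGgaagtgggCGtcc
ZNF534: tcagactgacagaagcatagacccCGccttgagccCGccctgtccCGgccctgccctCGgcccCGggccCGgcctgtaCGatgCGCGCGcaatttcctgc
These stretches come from the RefSeq promoter table (GRCh38.p14) and were placed by exact match at chr19:44123782-44123881 on the minus strand, chr19:56135933-56136032 on the minus strand, chr19:9473589-9473688 on the plus strand and chr19:52932301-52932400 on the plus strand of GRCh37. The stretch of ZNF177 lies in an intron of the readthrough gene ZNF559-ZNF177, and the other 3 lie between genes. They hold 12, 8, 8 and 10 CpG. The whole stretch of ZNF428 was covered by H3K4me3 and H3K27ac peaks of both replicates, and that of ZNF177 by H3K4me3 of replicate 2 alone. ZNF534 thus held 10 CpG with no peak over it, within the range of the other 3 stretches. As a class, promoters without H3K4me3 in both replicates held fewer CpG. Over the longer RefSeq promoters described below, their median was 14 (9 promoters), against 21 with H3K4me3 and H3K27ac (151 promoters).

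Most of the 245 genes were transcribed, and most at a low level. RNA level is given as FPKM, fragments scaled to transcript length and to the mapped fragments of the library, summed over the transcripts of a gene. Of the 245 genes, 189 (77.1%) reached an FPKM of 1 in each of the libraries, compared with 58.8% of all protein-coding genes. The median FPKM was 2.12 in library 1 and 2.28 in library 2, below the 3.24 and 3.36 of all protein-coding genes. The middle of the distribution ran from 1.29 at the lower quartile to 3.82 at the upper quartile, whereas the quartiles of all protein-coding genes were 0.0305 and 13.7. Levels between 1 and 10 were found in 187 of the 245 genes (76.3%) and in 28.1% of all protein-coding genes. At the upper end 11 genes (4.49%) reached 10 in both libraries against 30.2% of all, and at the lower end 9 genes (3.67%) were listed at 0 in both libraries against 19.6% of all. So the genes formed a narrow band, with few silent and few abundant members. In such bulk samples fewer cells with a transcript and less RNA per cell cannot be told apart.

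The ZNF genes of the other chromosomes had a similar share above the threshold and higher levels. Of these 262 genes 77.5% reached 1 in each library and 11.1% reached 10, and their median was 3.41. Levels between 1 and 10 were found in 67.2% of them and 7.25% were listed at 0 in both libraries, with quartiles of 1.55 and 6.88. The band of low levels was thus largely shared by ZNF genes elsewhere. Of the other 1218 coding genes of chromosome 19, 56.5% reached 1 in both libraries and 33.1% reached 10, with a median of 2.82. In the shares that reached 1 and 10 the ZNF genes of chromosome 19 were thus nearer to ZNF genes elsewhere, and in the median, 2.26 over the mean of the libraries, nearer to the other genes of their chromosome. No test was run over the genes.

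**Figure D1:**
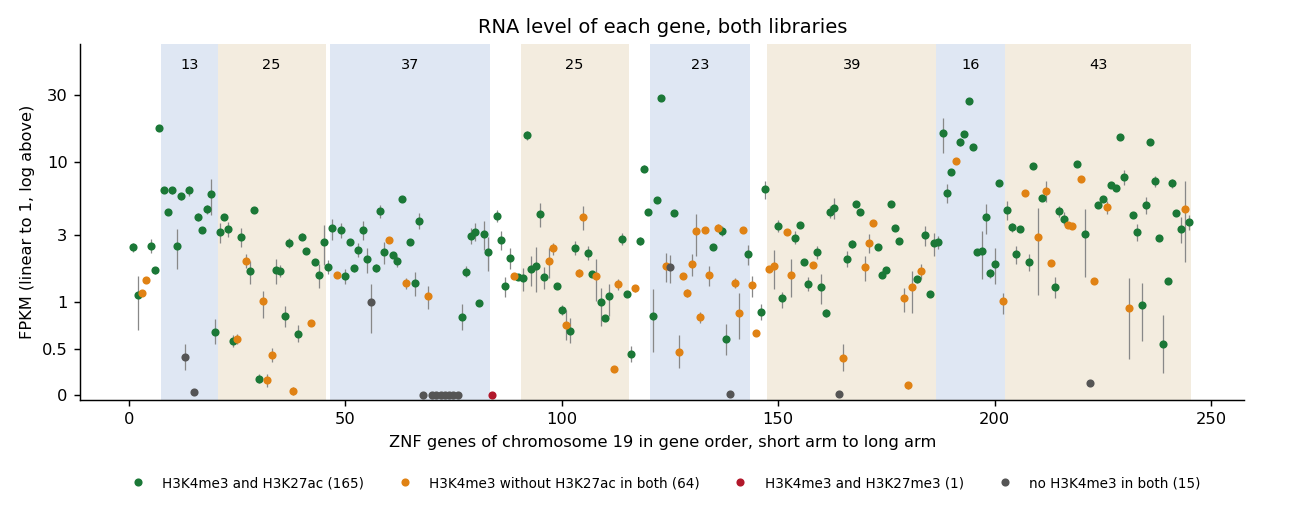
Mean FPKM of each of the 245 ZNF genes of chromosome 19, in gene order from the short to the long arm; the vertical axis is linear to 1 and logarithmic above. Points are the mean of 2 libraries, bars join the libraries, colours give the promoter marks, and shaded bands are the 8 clusters of at least 10 genes with the number of genes in each; most points lie between 1 and 10, and a row of points at 0 stands within the cluster of 37.

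Of the 10 genes of highest level, 9 encode proteins with fewer fingers than the median of 12. Such counts were common in the whole set: of the 245 genes, 31 had 1 to 7 fingers and 94 had 8 to 12. The second range also includes genes at the median itself. Over all these genes finger number went only weakly with FPKM (Spearman's rho -0.135). ZNF428 was the highest, with an FPKM of 30.2 in library 1 and 27.2 in library 2 (28.7 ± 2.13, SD, n = 2), and its product held 1 finger by the pattern used. ZNF787 followed at 28.4 and 26.3. ZNF358 was at 17.9 and 17, ZNF581 at 15.3 and 16.6, and ZNF580, whose gene overlaps ZNF581 (chr19:56146382-56154836 against chr19:56146825-56156989), at 13 and 14.9. How reads were shared between this overlapping pair cannot be told apart, since whether the counting used strand is not given in the sources used here and both genes are on the plus strand.

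ZNF579 was the least steady of the 10, with 20.7 in library 1 and 11.7 in library 2. ZNF146, a protein made almost wholly of fingers, was at 14.5 and 16.7, and ZNF444, a SCAN domain protein, at 13.2 and 12.5. ZNF587 (15.3 and 14.9) and ZNF274 (13.7 and 14.0) were the only 2 of the 10 with the KRAB pattern. ZNF274 binds the 3′ ends of zinc finger genes themselves and recruits SETDB1 there. In ZNF587 73.3% of exonic windows of 50 bases occurred once in the genome, so its value rests more than the others on how reads with several matches were shared out.

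Of the 8 genes listed for a known role, 6 had a mean FPKM between the quartiles of the 245, while ZNF274 was among the 10 highest and ZNF536 was listed at 0 in both libraries. ZNF91, which binds SVA retrotransposons, stood at an FPKM of 2.60 in library 1 and 3.37 in library 2, and ZNF93, which binds L1 elements, 2.59 and 2.78. ZNF649, also an L1 binder, was at 3.17 and 3.86. ZNF568, whose mouse counterpart silences a placental Igf2 transcript, was at 2.18 and 2.71. ZNF331, an imprinted gene, was at 3.13 and 2.12, and ZNF382, described as silenced by methylation in several carcinomas, was at 1.23 and 1.78. These 6 all carried H3K4me3 and H3K27ac in both replicates, and each differed between the libraries by less than 1.5-fold. The values of ZNF91 and ZNF93 overlapped between the libraries, so their order is not settled, while those of ZNF568 and ZNF382 did not overlap.

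The cofactors that KRAB proteins recruit had higher levels than most of the zinc finger genes. Their lowest mean FPKM, 7.05, lay above the upper quartile of the 245 genes, 3.82. All 13 cofactors on the list reached an FPKM of 1 in each library, as did 58.8% of all protein-coding genes. Their mean levels ran from the 61.4 percentile of all coding genes (MPHOSPH8) to the 98.9 percentile (TRIM28). TRIM28, the scaffold, was at 194 and 188. The HP1 genes CBX1 (66.2 and 67.6), CBX3 (45.0 and 46.3) and CBX5 (41.8 and 40.5), and UHRF1 (57.7 and 54.6) and DNMT1 (46.4 and 45.9), which maintain DNA methylation, made up with TRIM28 the 6 cofactors that lay above every one of the 245 genes in both libraries. SETDB1 was at 15.7 and 14.3 and its partner ATF7IP at 8.37 and 7.76. Of the HUSH complex, FAM208A (TASOR) was at 11.7 and 13.8, PPHLN1 at 23.1 and 25.3 and MPHOSPH8 at 6.48 and 7.63, and MORC2, which acts with it, at 10.4 and 10.6. ATRX was at 10.3 and 11.9. H3K4me3 and H3K27ac were present in both replicates at 12 of the 13, the exception being MPHOSPH8. Of all 19645 protein-coding genes, 10502 had both marks by the same rule.

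H3K4me3 was almost universal at the promoters of the 245 genes. A mark is called present where a peak of each replicate overlaps the window of 1 kb on either side of any annotated transcription start site (TSS). By this rule 230 genes (93.9%) had H3K4me3, compared with 70.3% of all protein-coding genes. H3K27ac was present at 165 (67.3%), against 55.0%. The ZNF genes of the other chromosomes had H3K4me3 at 91.2% and H3K27ac at 76.7%.

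The H3K27ac count turned on replicate 2. In replicate 1 alone 229 genes (93.5%) had an H3K27ac peak, and no gene had one in replicate 2 only. Replicate 2 listed 1614 H3K27ac peaks on chromosome 19 with a median width of 666 bp, and replicate 1 2141 with a median width of 1400 bp. The study reported that a far smaller share of mapped reads fell in H3K27ac peaks in the replicate with fewer peaks. Among the 230 genes with H3K4me3, 63 had H3K27ac in replicate 1 only. Among all protein-coding genes the 2 replicates gave 67.5% and 55.1%, so the gap between replicates was wider over the 245 genes. Whether the lower level of these genes or the smaller share of reads in peaks has a part in that gap was not tested.

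**Figure D2:**
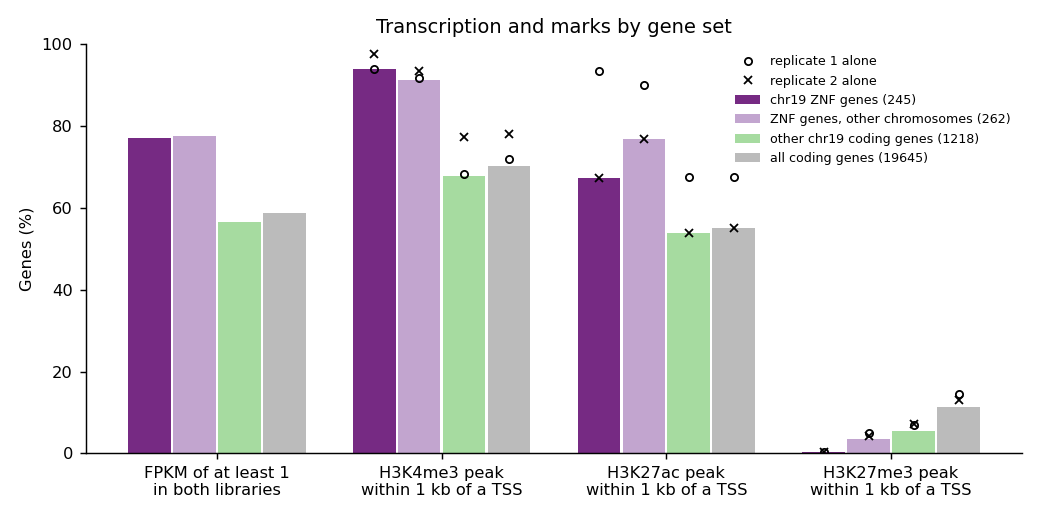
Share of genes (%) that reach an FPKM of 1 in each library and with a peak of each mark within 1 kb of a TSS, for the 245 ZNF genes of chromosome 19 and 3 comparison sets. Bars require both replicates, circles and crosses give replicates 1 and 2 alone; for H3K27ac the bar of the chromosome 19 ZNF genes is at 67.3% and its circle at 93.5%.

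H3K27me3 peaks were all but missing from these genes. They were found at a TSS of 1 gene (0.408%), compared with 11.4% of all protein-coding genes, 5.58% of the other coding genes of chromosome 19 and 3.44% of the ZNF genes of other chromosomes. The study reported that only a small share of mapped reads fell in H3K27me3 peaks in either replicate. A gene without a peak may thus still carry weak signal. Over the gene body 1 gene was marked in both replicates, against 16.1% of all protein-coding genes, and 2 in either. The count of 1 at the TSS was the same in replicate 1, in replicate 2 and in either. H3K27me3 peaks covered 0.849% of the bases of chromosome 19 in replicate 1 and 0.416% in replicate 2, and 0.385% and 0.192% of the 14.1 Mb spanned by the 8 large clusters. The clusters differed in this. The one from ZNF628 to ZNF835 had 3.41% and 1.44% of its bases covered, above the chromosome, and the one from ZNF414 to ZNF846 had 0.78% and 0.574%. In the 6 others the share was at most 0.143% in either replicate.

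ZNF536 was the marked gene. It encodes a repressor known from neuronal differentiation and stands alone, outside the clusters, at chr19:30715798-31204493 of GRCh37, a gene body of 489 kb. H3K27me3 covered 70.9% of the windows around its 10 TSSs in replicate 1 and 59.3% in replicate 2, with peaks such as chr19:30713504-30717811 (replicate 1) and chr19:30715248-30717796 (replicate 2) over its first start. H3K4me3 stood beside them, at chr19:30717921-30719090 in replicate 1 and chr19:30718097-30718986 in replicate 2. No H3K27ac peak was found in its windows in either replicate, and its FPKM was listed at 0 in both libraries. Its H3K27me3 covered 4.41% and 1.70% of the whole body. It was the only 1 of the 245 with the double marking that is called bivalent; of all protein-coding genes with H3K4me3, 10.0% also had H3K27me3. The 1 other gene touched was ZNF439, with a peak of 443 bp in replicate 2 only (chr19:11993206-11993648) and an FPKM of 1.75 and 2.21.

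**Figure D3:**
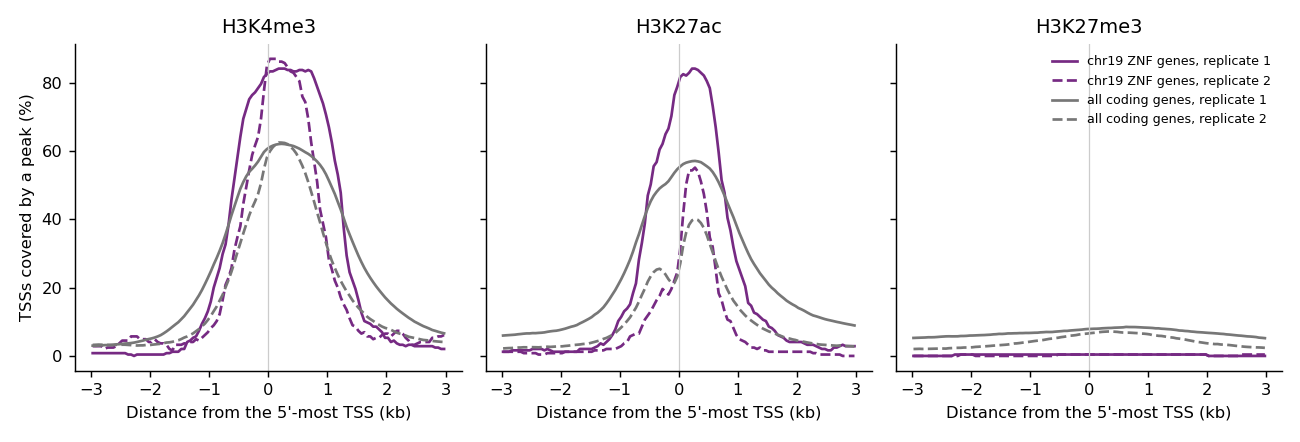
Share of 5′-most TSSs (%) covered by a peak against distance from the TSS in kb, for the 245 ZNF genes of chromosome 19 and for all protein-coding genes, each replicate as a line. Coverage of the ZNF genes by H3K4me3 and H3K27ac rises to 84.1% in replicate 1 for both marks, and their H3K27me3 lines stay at 0.408% or 0.

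The shape of the marks around the TSS also differed from that of coding genes at large, and here 1 TSS, the 5′-most, was taken per gene. The points compared, 325 bp upstream and 275 bp downstream, are the highest ones on either side of the TSS in the H3K27ac profile of all genes in replicate 2. In replicate 1 the downstream point is the same, but the upstream side has no such maximum and rises towards the TSS, so its ratios rest on a point set by replicate 2. In replicate 1 H3K27ac covered 84.1% of the ZNF starts at the downstream point and 60.4% at the upstream one, while for all protein-coding genes the values were 57.1% and 49%. In replicate 2 they were 55.1% and 17.6% for the ZNF genes and 40.1% and 25.5% for all. The upstream value was thus 0.718 and 0.319 of the downstream one in replicates 1 and 2 for the ZNF genes, and 0.859 and 0.637 for all genes. For H3K4me3 this ratio was 0.893 and 0.633 for the ZNF genes and 0.869 and 0.66 for all. At these points the tilt towards the gene was thus stronger than in all genes for H3K27ac and about the same for H3K4me3. The contrast between the marks depended on the points, which were set on H3K27ac. Near 1 kb on either side H3K4me3 too was tilted more in the ZNF genes than in all, in both replicates.

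The ZNF genes with both active marks had a higher median level than those without H3K27ac in both replicates. The 165 genes with H3K4me3 and H3K27ac had a median FPKM of 2.59 in library 1 and 2.80 in library 2, and 143 of them reached 1 in both. The 64 genes with H3K4me3, no H3K27me3 and no H3K27ac in both replicates had medians of 1.38 and 1.64, and 45 reached 1 in both. With ZNF536 counted in the second class, the medians of log10(FPKM + 1) differed by 0.16 (0.18 in library 1 and 0.16 in library 2). With ChIP-seq replicate 2 left out the difference was 0.51, but the second class then held 2 genes, since 63 of the 64 had H3K27ac in replicate 1. The second class was thus set almost wholly by H3K27ac replicate 2, where a smaller share of reads fell in peaks. The classes overlapped widely: their quartiles were 1.67 to 4.42 and 1.06 to 2.82, and ZNF784 of the second class stood at 10.2 and 10.3.

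Set beside all protein-coding genes with the same marks, the fully marked ZNF genes were low and the others were not. All coding genes with H3K4me3 and H3K27ac had a median of 11.5, against 2.73 for the ZNF genes, taking the mean of the libraries. ZNF genes of other chromosomes with both marks were also low, at 4.65, while other coding genes of chromosome 19 were at 14.4. With H3K4me3 and without H3K27ac in both replicates, the medians were 1.01 for all and 1.55 for the ZNF genes. They were 1.20 for ZNF genes of other chromosomes and 1.75 for other coding genes of chromosome 19. Genes with H3K27me3 were left in this class, and 10.0% of all genes with H3K4me3 had that mark, against 1 ZNF gene. Among genes with H3K4me3, H3K27ac was present at 71.7% of the ZNF genes and 76.1% of all. The extent of H3K4me3 was close to that in all genes: among genes with the mark in both replicates the median number of bases covered within 1 kb of the 5′-most TSS was 1594 and 1214 in replicates 1 and 2, against 1666 and 1241 for all. For H3K27ac it was 1400 and 589 against 1681 and 878.

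**Figure D4:**
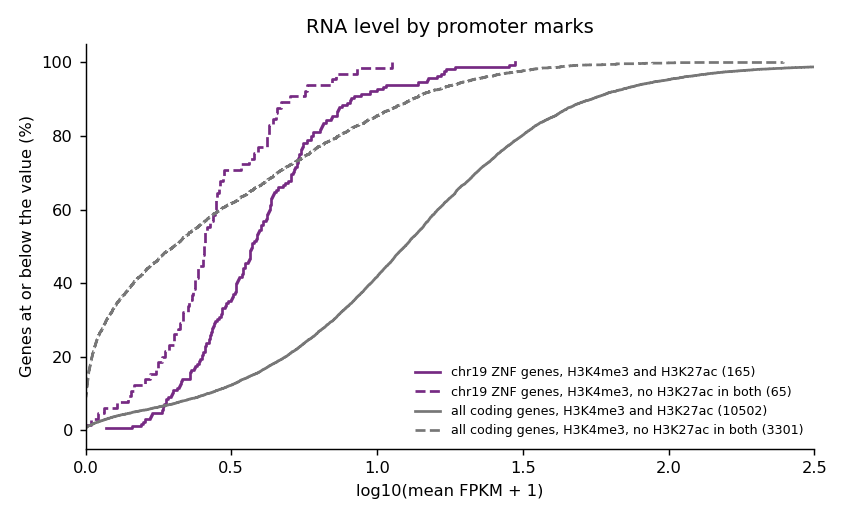
Cumulative share of genes (%) at or below each value of log10(mean FPKM + 1), for ZNF genes of chromosome 19 and all protein-coding genes, split by H3K27ac among genes with H3K4me3. The curve of the 165 fully marked ZNF genes lies far to the left of that of all 10502 coding genes with these marks, with medians of 0.57 and 1.10.

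Of the 15 genes without H3K4me3 in both replicates, 13 were under an FPKM of 1 in each library. A peak in replicate 2 only was found at 9 of the 15 and in neither replicate at 6. The exceptions in level were ZNF404, at 2.16 and 1.37 with 770 bp of H3K4me3 in replicate 2, and ZNF626, at 1.34 and 0.661 with 467 bp. The other 13 ran from ZNF177 at 0.274 and 0.547 down to 8 listed at 0. ZNF534, the highest of the 6 with no H3K4me3 peak at all, was at 0.0253 and 0. The other 5 were ZNF208, ZNF676, ZNF729, ZNF492 and ZNF99, each listed at 0 in both libraries. At least 78.9% of the 50-base windows around the TSSs of the 15 genes occurred once in the genome, with a median of 94.5%, against 95.6% for the 245 genes, and reads with several matches were not used for the peaks.

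The silent genes lay side by side. Of the 9 genes listed at 0 in both libraries, 8 fell in 1 stretch of 1.07 Mb at chr19:22115760-23185978, from ZNF208 to ZNF728, and the ninth was ZNF536. This stretch holds 9 of the 245 genes, and its ninth member, ZNF257, was at 1.3 and 0.926 with H3K4me3 in both replicates. The stretch was picked out after its values were seen. The other 28 genes of the same cluster were all transcribed, with a lowest mean FPKM of 0.839 (mean of the libraries) and a median of 2.28, and 27 of them had H3K4me3 in both replicates. No H3K27me3 peak of either replicate touched the stretch. In it between 52.5% and 95.2% of the exonic windows of a gene were unique in the genome, with a median of 83.9%, against a median of 92.5% in the rest of the cluster; the part of this in the values was not tested. ZNF728, at 91.7% unique, was listed at 0 like ZNF98, at 52.5%. ZNF208 held the most fingers of the 245 by the pattern used, 36, and ZNF729 34.

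Along the chromosome the genes formed 21 groups when successive genes starting within 500 kb were joined, 9 of them single genes. The 8 groups of at least 10 genes held 221. The level was highest in the group from ZNF628 to ZNF835 (chr19:55987984-57183151, 16 genes), at a median of 6.56, and in the group from ZNF414 to ZNF846 (chr19:8574562-9903856, 13 genes), at 4.38. The group of 43 genes next to the long arm telomere, from ZNF264 to ZNF446 (chr19:57702868-58992597), followed at 4.19. The 5 others had medians from 1.53 to 1.94. The first 2 groups also had the highest shares of H3K27ac in both replicates, 14 of 16 and 11 of 13.

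The group from ZNF575 to ZNF180 (chr19:44029649-45004576, 23 genes) stood out for H3K27ac. Only 8 of its 23 genes (34.8%) had the mark in both replicates, although 21 had H3K4me3 in both and 21 had H3K27ac in replicate 1. Its median FPKM was 1.81. The next lowest shares among the 8 groups were 64.1% and 64.9%. Both ZNF428, the highest gene of all, and ZNF404 lie in this group.

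Other coding genes lying within the same spans were, pooled over the 8 spans, lower and less often marked. These 95 neighbours, taken without genes of zinc finger names, had a median FPKM of 0.0653 in library 1 and 0.0688 in library 2, against 2.18 and 2.34 for the 221 ZNF genes there. Both libraries reached 1 for 28 of the 95 (29.5%) and for 170 of the 221 (76.9%). H3K4me3 was present at 50 of the neighbours (52.6%) and 206 of the ZNF genes (93.2%), and H3K27me3 at 3 and 0. At the top the order turned: 13 neighbours (13.7%) reached an FPKM of 10 in both libraries, against 10 ZNF genes (4.52%). The span from ZNF575 to ZNF180 went the other way, with a median FPKM of 1.90 for its 14 neighbours against 1.81 for its ZNF genes, and H3K27ac in both replicates at 7 of the 14 against 34.8%.

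Protein features went with level only loosely. Fingers were counted in the translated coding sequences with the C2H2 spacing pattern; the median was 12 and the range 1 to 36. The 31 genes with 1 to 7 fingers had a median FPKM of 2.86, the 94 with 8 to 12 had 2.18, the 85 with 13 to 17 had 2.30 and the 35 with at least 18 had 1.82. Across the 245 genes Spearman's rho between finger number and FPKM was -0.135, a description over genes that share clusters and sequence. The KRAB pattern, a spaced set of residues of the KRAB A box, was found in 179 genes, whose median FPKM was 1.95, against 3.25 in the 66 without it. The gap lay among the genes with H3K4me3 and H3K27ac (2.46 with the pattern and 4.57 without), and the order turned among those with H3K4me3 but not H3K27ac in both replicates (1.61 and 1.37). A looser pattern drawn up after values were seen, since 21 of 23 genes of the 44 Mb group lacked the first, was found in 205 genes and gave 2.02 against 4.26. Both patterns leave 8 of the 10 highest genes without KRAB. H3K27ac in both replicates was found at 68.7% of the genes with the first pattern and 63.6% of those without. Those without include the 21 of the 44 Mb group, where 8 of 23 genes had the mark in both replicates. Neither this split nor the one by promoter marks was made with the looser pattern, so their direction may rest on that group.

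The promoters shared sequence features that no rule on marks or level had used. RefSeq promoters, from 250 bases before to 50 bases after the start, were matched for 215 of the 245 genes and 15238 coding genes in all. The letters CCGGAA on either strand, the core of the site of ETS factors, stood in 121 of the 215 (56.3%) and in 23.1% of all. In 111 of those 121 (91.7%) the occurrence nearest the start began between 100 bases before it and 50 after it, against 70.9% of all promoters with the letters. The sequences of the 60 bases before the start are shown for the 3 genes of highest level with these letters in that stretch and no annotated exon there, with the letters in capitals.
ZNF865: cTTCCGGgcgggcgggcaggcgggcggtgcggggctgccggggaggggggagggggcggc
ZNF776: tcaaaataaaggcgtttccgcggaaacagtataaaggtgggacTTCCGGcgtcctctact
ZNF264: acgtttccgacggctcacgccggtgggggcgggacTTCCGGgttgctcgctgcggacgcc
By exact match they lie on the plus strand of GRCh37 at chr19:56116953-56117012, chr19:58258123-58258182 and chr19:57702808-57702867; that of ZNF776 falls in an intron of an unnamed annotated gene (ENSG00000269026) and the others between genes. All 3 stretches were wholly covered by H3K4me3 in both replicates. The FPKM was 8.88 and 8.11 for ZNF865, 4.89 and 4.96 for ZNF776, and 5.25 and 3.83 for ZNF264.

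Of the other motifs, each searched on either strand, TATAAA was rarer than in the background, in 4 of the 215 (1.86%) against 9.56% of all promoters. GGGCGG, the core of the Sp1 site, was found in 67.9% against 59.4%, and AANATGGC, the core of the YY1 site, in 14.4% against 8%. CCGGAA was found in 89 of 151 promoters with H3K4me3 and H3K27ac (58.9%) and in 25 of 54 with H3K4me3 and without H3K27ac in both replicates (46.3%), and in 6 of the 9 matched promoters without H3K4me3 in both. The letters thus stood in promoters without H3K4me3 in both replicates too. By place the share ran from 6 of 24 in the group from ZNF653 to ZNF791 to 23 of 29 (79.3%) in the group from ZNF101 to ZNF254.

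CpG content differed by arm. The ratio of observed to expected CpG had a median of 0.765 over the 215 promoters, near the 0.769 of all. It was 0.594 on the short arm (73 promoters) and 0.822 on the long arm (142), and lowest in the group of 37 genes from ZNF101 to ZNF254, at 0.438. In that group 28 of the 37 genes had H3K4me3 in both replicates, a lower share than the 230 of all 245. The stretch of silent genes lies in this group, and outside that stretch 27 of its 28 genes had the mark. Whether CpG content has a part in this was not tested. The median FPKM was 1.73 and 1.98 in the 2 libraries on the short arm (83 genes) and 2.40 and 2.38 on the long arm (162 genes).

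The 2 RNA libraries differed more over these genes than over coding genes at large, and large differences were no more frequent than in ZNF genes elsewhere. Among the 198 genes whose mean FPKM was 1 or more, library 2 was over 2-fold above library 1 in 5 and below it in 3, against 0.868% and 0.775% of all protein-coding genes. Both directions together came to 4.04%, below the 12 of 210 (5.71%) among ZNF genes of other chromosomes. With the mean FPKM held between 1 and 10, the median size of the log2 ratio was 0.28 for 187 ZNF genes, 0.18 for 5520 coding genes and 0.20 for 176 ZNF genes of other chromosomes. The shares over 2-fold apart were then 4.28%, 2.5% and 6.82%. In the same range 130 of the 187 ZNF genes (69.5%) were higher in library 2, against 61.9% of ZNF genes of other chromosomes, 56.3% of all coding genes and 40.6% of the other coding genes of chromosome 19. The labels give no batch or culture for the libraries, so technical and biological spread cannot be told apart.

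The 5 largest ratios were seen in 3 genes higher in library 2 and 2 lower. ZNF17 was at 1.11 and 4.72, ZNF324 at 1.93 and 7.36, and ZNF551 at 1.5 and 4.61, a log2 ratio of 2.09, 1.93 and 1.62. ZNF555 was at 1.54 and 0.696 and ZNF583 at 3.20 and 1.46, a log2 ratio of -1.14 and -1.13. The first 3 lie in the group nearest the long arm telomere and each overlaps 2 other annotated genes. In ZNF324 89.0% of exonic windows were unique, and in the other 4 at least 96.2%.

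**Figure D5:**
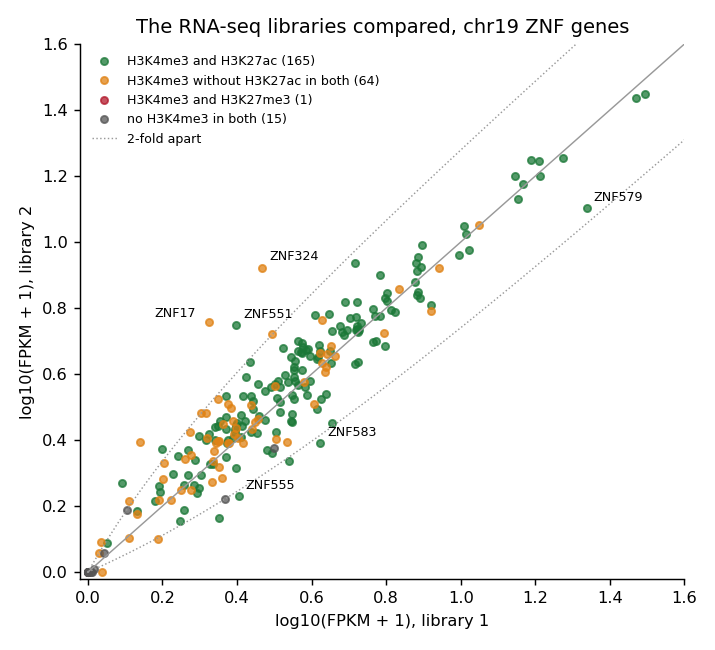
log10(FPKM + 1) of each of the 245 genes in library 1 (horizontal) and library 2 (vertical), coloured by promoter marks, with the line of equality and dotted lines at a 2-fold difference. ZNF17, ZNF324 and ZNF551 lie above the upper dotted line, and no gene with a mean FPKM of 5 or more lies outside the lines.

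The labelled cell type was checked on markers. Of the epithelial list KRT8 (179 and 184), KRT18, CDH2, EPCAM and the kidney factor PAX8 (100.2 and 104) were high and CDH1 was at 0.21 and 0.283. Of 9 proximal tubule markers GGT1 (64.1 and 58.1) and SLC5A2 (1.56 and 2.36) reached 1 in both libraries, CUBN, AQP1, ANPEP and SLC34A1 were under 0.3, and LRP2, SLC22A6 and HNF4A were listed at 0. None of the 2 endothelial, 3 leukocyte and 4 distal nephron markers reached 1, while COL1A1 of the fibroblast list was at 40.3 and 39.9 and PODXL of the podocyte list at 4.41 and 5.85. These values were the same for every gene described and their part in the results was not tested.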

How the data were processed

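RNA was measured in 2 libraries and 3 histone marks in 2 ChIP-seq replicates each; the labels do not say whether replicates were separate cultures. Per the file headers the authors made the FPKM values with StringTie 1.3.3 on GENCODE 27 (GRCh38), after HISAT2 alignment; they deposited normalized FPKM and TPM values per transcript with no counts, summed per gene here. The deposited peak lists hold hg19 coordinates only, called per replicate with MACS2 from uniquely mapped Bowtie2 alignments. Per the methods, reads were trimmed of adaptors and filtered on quality, and both aligners ran with default settings. The deposited RNA values cover annotated transcripts only, with no new ones. The methods of the study differ here, naming hg19 for the RNA-seq reads and an assembly of transcripts by StringTie. MACS2 settings are not given in the sources used here. Genes were joined by Ensembl identifier to GENCODE 44 lifted to GRCh37 (55859 of 58288 matched), and peaks intersected with windows of 1 kb around TSSs and with gene bodies. Values are compared as counts and medians with no test, since there is 1 condition and the genes and lists were chosen with earlier results of these data known. Log10 values use a pseudocount of 1. Named genes were the 10 of highest mean FPKM, the 5 of largest ratio between libraries at a mean FPKM of 1 or more, those with H3K27me3, the 5 highest without H3K4me3 in either replicate, genes of known role and KRAB cofactors. Coverage per unit of FPKM was 5.67 and 5.52 bases in libraries 1 and 2, and the 245 genes held 11.5 and 11.8 Mb of aligned bases (0.254% and 0.267%). Of the 245 genes 188 overlap another annotated gene. Sequence uniqueness was counted over 50-base windows of GRCh37 on both strands, and fingers and KRAB in coding sequences of GENCODE 44 translated here; a SCAN pattern found no gene as first written and was dropped. Finger bins, the limit of 10 genes for a large group, the name filter on neighbours and the printed promoters were chosen after the files were seen. Overlap and uniqueness code was tested on simulated data. Python 3.11.15, pandas 2.3.3, numpy 2.4.6, numba 0.67.0 and Biopython 1.88 were used. The alternatives tried are given with their effect in the closing section.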

Additional observations from a re-analysis of the deposited data

How the results depend on the processing

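No paired analysis was possible because each group is a different assay or mark and the results come from no test. The counts of H3K4me3, H3K27ac and H3K27me3 at a TSS stayed within 1.5 times under other windows, a single TSS per gene, a 200 bp minimum and each replicate alone; with 1 replicate left out they ran from 230 to 239, from 165 to 229 and from 1 to 1. The body count of H3K27me3 was 2 in either replicate, ran from 1 to 2 with 1 replicate left out, and was 0 when 10% of the body had to be covered. The count that reached an FPKM of 1 in each library was 115 at a threshold of 2, and from 195 to 199 with 1 library left out. The median of log10(FPKM + 1), 0.51, was 0.37 with a pseudocount of 0.1, 0.86 in TPM and 0.54 in genes overlapping no other gene, and from 0.49 to 0.52 with 1 library left out. The difference between H3K27ac classes, 0.16, kept its sign throughout: it was 0.52 with a peak in either replicate, from 0.18 to 0.51 with 1 ChIP-seq replicate left out, 0.23 with a pseudocount of 0.1, and from 0.16 to 0.18 with 1 library left out. The values of 0.52 and 0.51 rest on a second class of few genes and compare other genes than the 0.16. In either replicate 239 genes had H3K4me3 and 229 had H3K27ac. Genes over 2-fold apart numbered 8, and 13 at a mean FPKM of at least 0.5, 0 at 5 and 16 in TPM. The median without minus with KRAB was 1.29, and 2.24 and 2.43 with patterns chosen after seeing the data. The causes were not tested. FPKM values without counts give no counting interval, and a 0 is a listed 0.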

Other observations

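The 15 chromosome 19 genes with a ZNF name that are annotated as pseudogenes were in no comparison. Of them 4 reached an FPKM of 1 in each library and 2 were listed at 0 in both. ZNF542P was the highest, at 7.13 in library 1 and 16.7 in library 2, with no peak of any of the 3 marks in the windows around its TSSs in either replicate. ZNF137P (1.47 and 2.12) and ZNF887P (1.57 and 1.75) were transcribed with no peak of the marks as well. ZNF702P (2.29 and 2.67) and ZNF321P (0.643 and 0.595) were the 2 with H3K4me3 and H3K27ac in both replicates, and both are annotated as transcribed processed pseudogenes. No H3K27me3 peak stood at a TSS of the 15 in either replicate.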
